A study of Mus musculus with 12 samples.

Results

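The comparison is of Nedd4 knockout cells (KO) with control cells of EMT6, a mouse mammary carcinoma line that is grown in culture and transplanted into mice. It uses 6 of the 12 libraries of the study, chosen by the line and genotype in their labels: 3 from EMT6 control cells and 3 from EMT6 KO cells. The other 6 come from 4T1, another mouse mammary tumour line, in the same 2 genotypes and with 3 libraries per group. The KO cells are described as derivatives carrying a guide RNA against NEDD4 (sgNEDD4), and the controls are labelled WT. All EMT6 cells were cultured in DMEM with fetal bovine serum per the labels' protocols, with no further treatment in the labels, and the batch label is the same throughout. The sources used here do not give whether the KO cells are 1 clone or a pool, what the control cells received, where the guide cuts, or whether a group's 3 libraries are from separate cultures. P-values therefore reflect no more than the spread between these libraries, which may be technical, and any other difference between the KO and control cells cannot be told apart from an effect of Nedd4.

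NEDD4 is a ubiquitin ligase of the HECT class. Its WW domains bind short proline-rich motifs in substrates or in adaptor proteins, and the ubiquitin it attaches sends many membrane receptors to endosomes and lysosomes. Ligases of this family are known for turning over growth factor receptors, ion channels and signalling proteins.

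The libraries are from mRNA and held 14307493 to 19761604 counts assigned to genes. Libraries of a group resembled each other, with correlations of log2 CPM (counts scaled to the library total) of at least 0.993 across genes, and the biological coefficient of variation was 6.73%. Control replicate 1 stood apart in nuclear and mitochondrial RNA. It held 449.6 CPM of Malat1, a nuclear noncoding RNA, against 189 and 213 CPM in the other controls and 158 to 200.2 CPM in the KO libraries. Its mitochondrially encoded share was 1.88% of counts, against 1.26% to 1.42% in the other controls and 1.09% to 1.29% in KO. Of the 10 tested nuclear noncoding RNAs, 1 was called higher and 3 lower in KO. Without control replicate 1, or without KO replicate 1, 1 was called lower. Neat1, which builds nuclear paraspeckles, was called lower with and without control replicate 1, at 6.54, 3.16 and 4.39 FPKM (counts scaled by exon length and library total) in the controls and 1.33, 1.48 and 1.71 FPKM in KO. The plot of log2 change with and without control replicate 1 shows what that library does to the comparison.

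**Figure D1:**
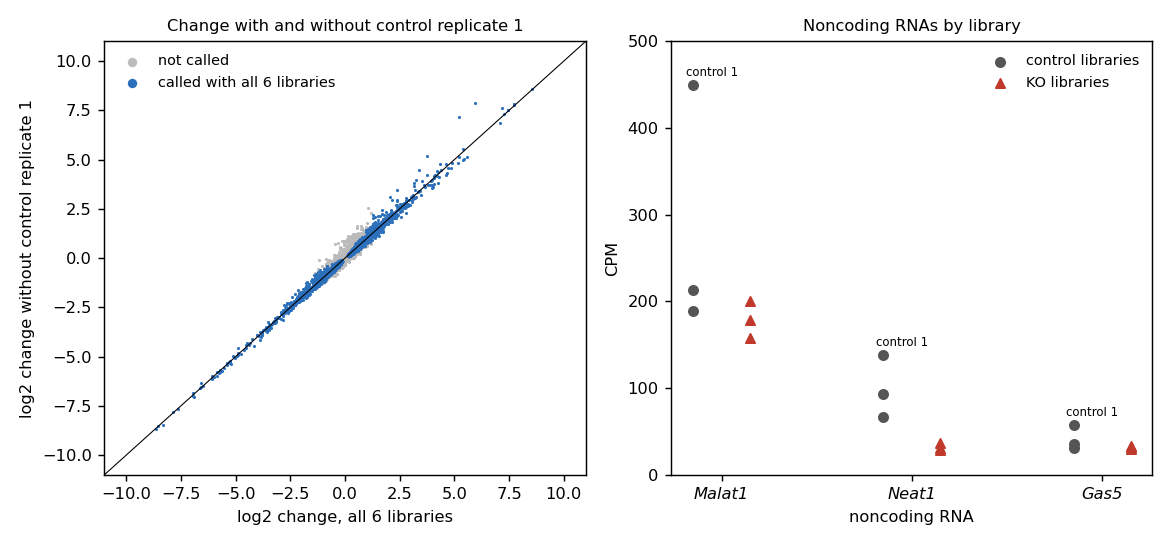
Left, log2 change of each tested gene (KO over control) with all 6 libraries on the horizontal axis and without control replicate 1 on the vertical axis, with the line of equality and called genes in blue. Right, CPM of 3 noncoding RNAs in each library, circles for controls and triangles for KO, where control replicate 1 holds 449.6 CPM of Malat1 and every other library at most 213 CPM.

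Nedd4 itself was low in every library labelled KO. The 3 controls held 22081, 27975 and 28190 counts of the gene, and the KO libraries 2964, 2853 and 2393. No KO library overlapped a control, and the level was 10.1-fold lower in KO (log2 change -3.34 ± 0.06, SE, n = 3 per group; edgeR quasi-likelihood test, Benjamini-Hochberg adjusted p = 5.6e-16). The smallest p that an exact permutation test of 3 against 3 libraries can give is 0.1, so tests here come from a model fitted across all genes. The gene lies on chromosome 9, and where along Nedd4 the KO reads fall was not analysed here. A gene is called where its adjusted p is under 0.05, and 56.0% of all 12890 tested genes were called, 27.9% higher and 28.2% lower, with a median log2 change of 0.00. Counts of gene lists are to be read against those shares. In bulk RNA, fewer cells with a transcript and less transcript per cell cannot be told apart.

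Other ligases of the NEDD4 family changed by less than Nedd4. Of the 7 tested HECT ligases of the family, 2 were called higher and 2 lower, Nedd4 included, near the shares over all tested genes. Wwp2 rose from 10.2 ± 0.174 to 13.9 ± 0.060 FPKM (SD, n = 3) and Itch, whose loss is known to cause inflammation in mice, rose from 10.6 ± 0.60 to 14.3 ± 0.37 FPKM. Nedd4l, the closest paralog, fell from 3.84 ± 0.0819 to 2.99 ± 0.211 FPKM. Smurf1 and Smurf2, which target SMAD proteins, and Wwp1 were not called, with log2 changes of -0.04 ± 0.06, 0.09 ± 0.05 and 0.02 ± 0.07. Summed over the listed ligases, the level was 189 to 193 FPKM in the controls and 90.0 to 90.7 FPKM in KO, most of the control sum being that of Nedd4. Of 6 adaptors, 2 were called higher and 1 lower. Txnip, an arrestin-domain protein that binds thioredoxin, read 17.3, 17.7 and 18.8 FPKM in the controls and 40.9, 41.8 and 40.4 FPKM in KO, with every KO library above every control (log2 change 1.20 ± 0.06). Calls of Arrdc3 (0.21 ± 0.08) and Ndfip2 (-0.20 ± 0.06) were lost on leaving out single libraries, Arrdc3 without control replicate 1 or 3 or KO replicate 3, and Ndfip2 without KO replicate 1 or 2. Among 15 tested genes whose proteins have been reported as NEDD4 substrates or partners, 2 were called higher and 9 lower (median -0.19). The count higher was 1 without control replicate 2 or 3 or KO replicate 1 or 2. Mdm2, a ligase for p53, fell from 24.8 ± 2.4 to 14.8 ± 0.827 FPKM and the receptor kinase Fgfr1 from 13.8 ± 0.311 to 9.89 ± 0.369 FPKM, while beta-catenin (Ctnnb1) rose from 68 ± 4.18 to 86 ± 3.29 FPKM.

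**Figure D2:**
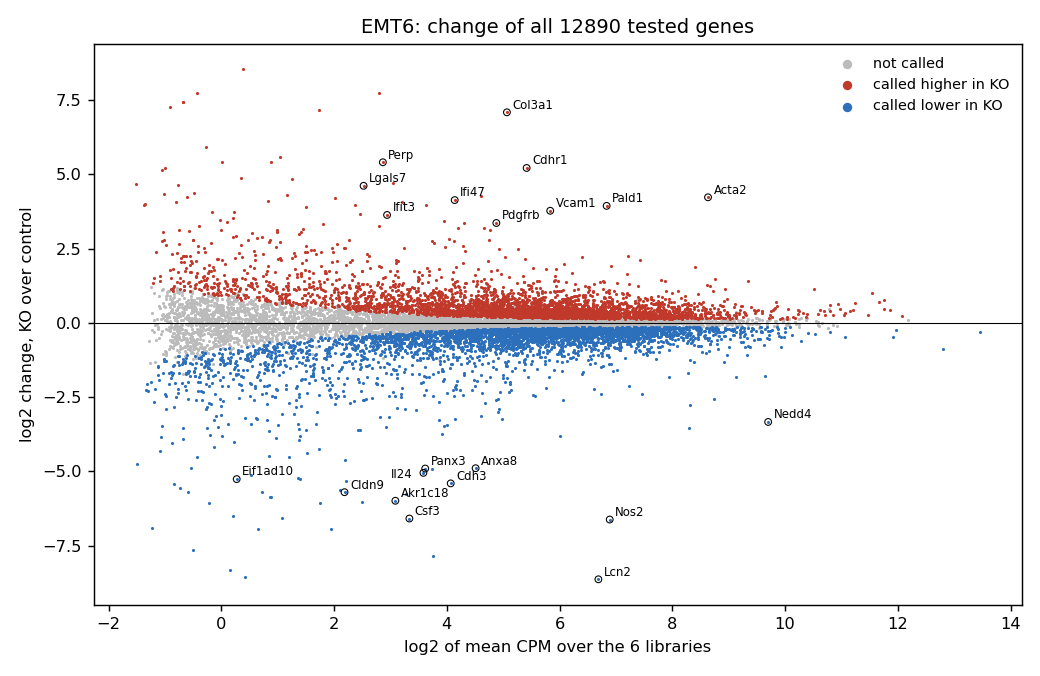
Log2 change (KO over control) of each of the 12890 tested genes against the log2 of its mean CPM over the 6 libraries, red where called higher, blue where called lower and grey where not called. Circles mark Nedd4 and the 10 largest increases and 10 largest decreases among genes with at least 5 FPKM in the higher group, from Col3a1 at 7.09 to Lcn2 at -8.63.

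The largest decreases included secreted defence proteins and epithelial surface proteins. Lcn2, lipocalin 2, which binds bacterial iron carriers, read 73.4, 68.4 and 93.3 FPKM in the controls and 0.16, 0.19 and 0.24 FPKM in KO. Nos2, the inducible nitric oxide synthase, read 56.4, 55.8 and 46.4 FPKM in the controls and 0.22, 0.73 and 0.67 FPKM in KO. Csf3, the growth factor of neutrophils (G-CSF), read 14.9, 14.7 and 12.8 FPKM in the controls and 0.26, 0.11 and 0.040 FPKM in KO. Libraries of the groups did not overlap for any of the 3, which was a condition of their choice, nor for 62.6% of all tested genes. The log2 changes of the 3 were -8.63 ± 0.19, -6.62 ± 0.28 and -6.59 ± 0.25. The other large decreases were those of Akr1c18, a hydroxysteroid dehydrogenase whose reads may be shared with its gene cluster (-5.99 ± 0.38), the claudin Cldn9 (-5.70 ± 0.36), P-cadherin (Cdh3, -5.40 ± 0.14), Eif1ad10, one of a set of near-identical copies and therefore uncertain (-5.26 ± 0.56), the cytokine Il24 (-5.05 ± 0.21), the channel protein Panx3 (-4.91 ± 0.21) and annexin A8 (Anxa8, -4.89 ± 0.13).

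The largest increases included mesenchymal, contractile and interferon-inducible genes. Col3a1, the chain of type III collagen, read 0.030, 0.060 and 0.050 FPKM in the controls and 6.37, 7.03 and 6.91 FPKM in KO. Acta2, smooth-muscle actin, read 17.5, 21.5 and 16.1 FPKM in the controls and 345, 332 and 353 FPKM in KO, a level 18.7-fold higher. Both were above every control in all KO libraries, as was Pdgfrb, the PDGF receptor of pericytes and fibroblasts, which rose from 0.953 ± 0.25 to 9.78 ± 0.16 FPKM. Vcam1, a receptor for leukocyte integrins, rose from 0.873 ± 0.0777 to 12 ± 0.251 FPKM, and Perp, a desmosomal protein also known as a p53 target, from 0.167 ± 0.0751 to 7.28 ± 0.584 FPKM. Cdhr1, a cadherin of photoreceptors, rose from 0.507 ± 0.0961 to 19.2 ± 0.983 FPKM, Pald1 from 3.08 ± 0.43 to 47.2 ± 1.82 FPKM and galectin-7 (Lgals7) from 0.487 ± 0.127 to 11.9 ± 0.596 FPKM. Ifi47, an interferon-inducible GTPase, and Ifit3, whose reads may be shared with its copy Ifit3b, rose by 4.13 ± 0.14 and 3.63 ± 0.19 on the log2 scale. No overlap between groups was a condition for listing these genes, so the same order of groups in the plot by library was fixed by the choice. Of all tested genes, 10.0% were called and had a log2 change of 1 or more in size, 586 higher (4.55%) and 706 lower (5.48%).

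**Figure D3:**
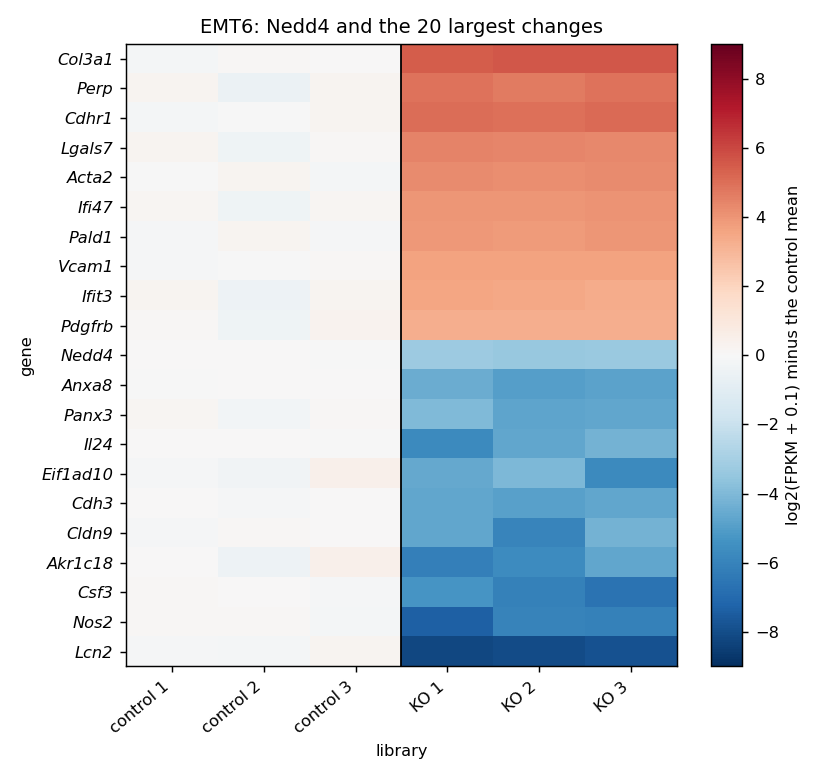
Log2(FPKM + 0.1) minus the control mean, by library (columns) and gene (rows), for Nedd4 and the 10 largest increases and decreases of called genes with at least 5 FPKM in the higher group and no overlap between groups. All KO columns are red for the increases and blue for the decreases, while the control columns are near 0.

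Other genes were named for the largest rises and falls in mean FPKM, a rule that picks abundant transcripts. Slpi, a secreted inhibitor of leukocyte proteases, fell from 472 ± 25.3 to 69.5 ± 1.49 FPKM, and the glutathione transferase Gsta4 from 536 ± 40.2 to 254 ± 7.02 FPKM. The elongation factor Eef1a1 fell from 4995 ± 441 to 4027 ± 53.6 FPKM, and the ribosomal proteins Rpl4 and Rpl8, whose reads may be shared with processed copies, fell from 1245 ± 23.1 to 885 ± 22.5 FPKM and from 1115 ± 33.3 to 871 ± 16.6 FPKM. On the other side, galectin-1 (Lgals1) rose from 1704 ± 124 to 2665 ± 97.1 FPKM, osteopontin (Spp1) from 862 ± 64.9 to 1303 ± 45.3 FPKM and beta-actin (Actb) from 1186 ± 215 to 1583 ± 56.2 FPKM. Ferritin light chain (Ftl1), also with close copies, rose from 1933 ± 135 to 2301 ± 99.8 FPKM.

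Some transcripts were at or near 0 in 1 of the 2 groups, with at most 3 counts in every library of one group and at least 30 in every library of the other. In KO there were 7 such genes. Zfp469, a zinc finger protein tied to collagen of the cornea, had 1, 1 and 1 counts in the controls and 266, 271 and 220 in KO. Inmt, a methyltransferase of indoleamines, had 1, 0 and 1 and 126, 120 and 112. Greb1, known as an oestrogen receptor target, had 0, 0 and 0 counts in the controls, which puts it at least 14.7-fold higher in KO when each control is set to the limit of 3 counts. The others were Eva1a, Cstf2t, Olfr56 and the interferon-inducible GTPase Tgtp2, of which the last 2 have overlapping or near-identical partners and are uncertain. In the controls there were 13. Pcdh7, a protocadherin, had 395, 509 and 481 counts there and 1, 3 and 2 in KO, and Il36g, an epithelial cytokine of the IL-1 family, 104, 120 and 174 and 1, 0 and 2. Cacna1g, a calcium channel, had 107, 103 and 129 and 2, 2 and 1. The remaining 10 included Tns4, Myo5c, Nudt7, Pdzrn3, Bcam, Speer3, Eif1ad10, Gm29695 and Gm15987, the last at 0 counts in all KO libraries and at least 16-fold lower there by the same limit.

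Some innate defence genes other than Lcn2 fell. Neutrophils are drawn by chemokines that carry an ELR motif and signal through CXCR2, and epithelial cells make these together with acute-phase proteins when NF-kappaB is active. Of 10 tested complement and acute-phase genes, Lcn2 included, 5 were called lower and 1 higher (median -0.23). Pentraxin 3 (Ptx3), which opsonizes microbes, read 244, 227 and 349.6 FPKM in the controls and 43.6, 45.7 and 48.9 FPKM in KO. Complement C3 fell from 168 ± 4.2 to 79.8 ± 6.35 FPKM, and Saa3, an acute-phase apolipoprotein, fell by 3.50 ± 0.47 on the log2 scale from a low level. Clu, the extracellular chaperone clusterin, was the member called higher (0.68 ± 0.07), and without control replicate 3 or KO replicate 1 the count higher was 2.

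Chemokines changed in both directions. Of 12 tested chemokines and their receptors, 4 were called lower and 3 higher (median 0.00), shares near those over all tested genes, of which 28.2% were called lower and 27.9% higher, and their summed level was 439.5 to 509 FPKM in the controls and 108 to 115 FPKM in KO. The 4 that fell were Cxcl5, Cxcl1, Cxcl2 and Cxcl3, all neutrophil attractants, Cxcl3 being named after its values were seen. Cxcl5 read 329.7, 328 and 278 FPKM in the controls and 25.2, 26.4 and 28.3 FPKM in KO. Cxcl1 read 98.7, 104 and 83.5 FPKM in the controls and 18.3, 16.4 and 19.9 FPKM in KO, and Cxcl2 fell from 27.6 ± 5.64 to 2.96 ± 0.396 FPKM. Cxcl10 and Ccl5, which attract T cells, rose from 0.277 ± 0.0651 to 2.79 ± 0.466 FPKM and from 1.82 ± 0.507 to 5.69 ± 0.205 FPKM, and the third call higher was that of the scavenging receptor Ackr3, also named after its values were seen. Of 24 tested cytokines and their receptors, 6 were called higher and 6 lower, near the shares over all tested genes. The alarmin Il33 fell from 12.2 ± 0.471 to 3.21 ± 0.0265 FPKM, and Il6, chosen after its values were seen, fell from 1.54 ± 0.19 to 0.183 ± 0.0306 FPKM. Il1rl1, the receptor of IL-33, rose from 1.68 ± 0.178 to 9.5 ± 0.0551 FPKM, osteoprotegerin (Tnfrsf11b) from 1.42 ± 0.225 to 10.2 ± 0.299 FPKM and Csf1, the macrophage growth factor, from 216 ± 13.7 to 270.1 ± 6.34 FPKM.

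The promoters of Cxcl1 and Cxcl2 are shown for the kappaB element that both carry, since these are the neutrophil chemokines with the largest falls that have a promoter row. The bases run 5′ to 3′ from 170 to 41 before the gene start in RefSeq GRCm38.p6, and capitals mark matches to the kappaB consensus on either strand, where 2 matches overlap by all but 1 base.
Cxcl1, chr5:90891075-90891204, plus strand: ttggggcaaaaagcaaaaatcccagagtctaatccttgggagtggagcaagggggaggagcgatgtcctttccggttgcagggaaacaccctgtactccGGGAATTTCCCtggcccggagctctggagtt
Cxcl2, chr5:90903729-90903858, plus strand: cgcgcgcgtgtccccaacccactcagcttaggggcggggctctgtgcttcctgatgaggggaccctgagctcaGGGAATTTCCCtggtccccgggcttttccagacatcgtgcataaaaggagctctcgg
In the 250 bases before the gene start, 3 of the 3 called-lower chemokines with a promoter row held a match, as did 1 of the 2 called higher and 5 of all 8 tested chemokines with a row, so that a match did not set the fallen ones apart. It was in 0 of the 5 called-lower complement and acute-phase genes with a row and in 5.50% of the 9329 tested genes with one. A match describes the letters and says nothing of binding.

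NF-kappaB factors and inhibitors changed in both directions. Of 16, 7 were called higher and 7 lower (median -0.03). Nfkbie, an inhibitor that holds the factor in the cytoplasm, rose from 3.84 ± 0.0666 to 17.7 ± 0.314 FPKM. Relb and Nfkb2, the subunits of the alternative pathway, rose by 1.40 ± 0.09 and 0.96 ± 0.06 on the log2 scale. By contrast Nfkbiz and Bcl3, atypical nuclear members, fell from 32.2 ± 3.08 to 6.9 ± 1.15 FPKM and from 19.9 ± 2.45 to 5.89 ± 0.218 FPKM. The plot of these genes by library shows no overlap between groups for Nfkbie, Relb, Nfkb2, Nfkbiz or Bcl3, as for 62.6% of all tested genes. The kinase Ikbke, an activator of NF-kappaB and IRF3, fell from 5.83 ± 0.577 to 1.45 ± 0.161 FPKM.

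**Figure D4:**
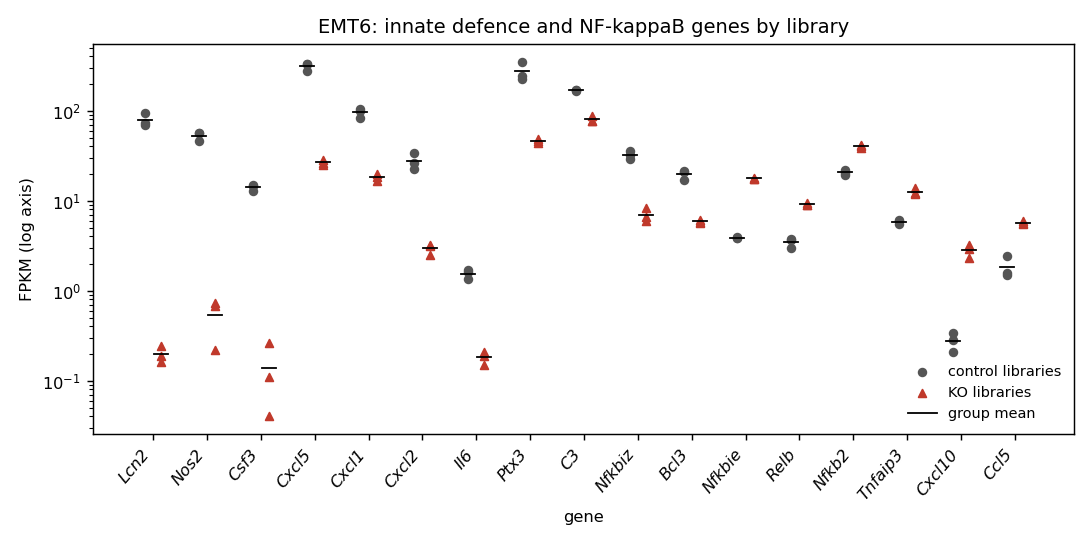
FPKM on a log axis of 17 innate defence and NF-kappaB genes in each library, circles for the 3 controls, triangles for the 3 KO libraries and bars for group means. Lcn2 through Bcl3 have all 3 KO points under all 3 control points. Nfkbie through Ccl5 have them above, for example Nfkbie at 17.7 against 3.84 FPKM on average. Groups did not overlap for 62.6% of all tested genes. Il6 and Tnfaip3 were chosen after their values were seen.

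Interferon-inducible genes rose while interferon transcripts were at or near 0. Interferons bind cell surface receptors whose JAK kinases activate transcription factors, and these drive a broad antiviral program, part of which is also kept up at a low level in the absence of virus. Of 8 interferon genes, 7 had 0 counts in all 6 libraries, and Ifnb1 had 1 count in KO replicate 1, where 0 counts allow up to 0.152 to 0.210 CPM. Of 14 tested sensors and adaptors, 8 were called higher and 3 lower (median 0.17). The RNA sensor RIG-I (Ddx58) rose from 8.51 ± 0.442 to 15.8 ± 0.829 FPKM and PKR (Eif2ak2), which stops translation on double-stranded RNA, from 17.9 ± 0.607 to 29.8 ± 1.21 FPKM. The nucleic acid sensor Zbp1 rose from 1.04 ± 0.129 to 3.46 ± 0.15 FPKM, while Mavs, the adaptor on which RIG-I signals, fell from 21.1 ± 1.8 to 13.8 ± 1.48 FPKM.

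Receptors and signalling genes were mixed, with 8 of 16 called higher and 4 lower (median 0.19). The count lower was 2 without KO replicate 1 or 2. Irf9, a DNA-binding factor of the pathway, rose from 3.89 ± 0.10 to 7.84 ± 0.617 FPKM. Of the receptor chains, Ifngr2 for interferon gamma rose from 3.66 ± 0.351 to 8.54 ± 0.369 FPKM, whereas Ifnar2 for type I interferon fell from 22.2 ± 1.64 to 12.2 ± 0.398 FPKM. Among the 7 feedback inhibitors, 2 were called higher and 5 lower. Usp18, which shuts the type I receptor, rose from 1.02 ± 0.143 to 5.77 ± 0.571 FPKM and Socs1 by 0.64 ± 0.17 on the log2 scale, while Socs3, the phosphatases Ptpn6 and Ptpn2, Pias1 and Nlrc5, the last also known to switch on class I genes, fell (log2 changes -0.46 ± 0.10, -0.83 ± 0.09, -0.34 ± 0.07, -0.25 ± 0.07 and -0.50 ± 0.07).

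The effectors moved almost all one way. Of 37 tested antiviral effectors, 32 were called higher and 1 lower (median 0.69), against 27.9% of all tested genes called higher. Ifit1, which binds viral RNA caps, read 1.03, 1.56 and 1.41 FPKM in the controls and 13.2, 13.2 and 11 FPKM in KO. Rtp4, which binds viral replication complexes, read 3.41, 3.16 and 3.01 FPKM in the controls and 22.6, 23.9 and 19.3 FPKM in KO, and Oasl2 rose from 2.41 ± 0.14 to 10.7 ± 1.32 FPKM. Ifitm3, which blocks viral entry and was the most abundant effector, rose from 336 ± 16.9 to 454 ± 28.2 FPKM. Ifi27l2a was the one called lower (-1.45 ± 0.33). Of 15 tested guanylate-binding proteins and immunity-related GTPases, which coat vacuoles of intracellular microbes, 14 were called higher and 0 lower (median 1.36). Gbp3 read 9.12, 8.12 and 8.18 FPKM in the controls and 32.2, 36.3 and 30.6 FPKM in KO, and the abundant Gbp2 rose from 63.5 ± 6.14 to 115 ± 6.88 FPKM. Irgm1 rose from 3.5 ± 0.338 to 10.5 ± 0.0709 FPKM and Gbp4 from 7.89 ± 0.291 to 16.3 ± 1.04 FPKM. Members of this family are near-identical in places, so levels of single Gbp and Tgtp genes are uncertain.

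Promoters of 4 of these genes are shown for the interferon response element, whose core was searched as GAAA, any 2 bases and GAAA on both strands. They are printed from 170 to 41 bases before the gene start in RefSeq GRCm38.p6, 5′ to 3′ on the gene's strand, with matches in capitals. TTTC at either end of a match marks the element on the opposite strand, and in Isg15 3 matches overlap. Isg15, a ubiquitin-like modifier chosen after its values were seen, rose from 39.1 ± 4.78 to 85.1 ± 6.49 FPKM.
Ifit1, chr19:34640719-34640848, plus strand: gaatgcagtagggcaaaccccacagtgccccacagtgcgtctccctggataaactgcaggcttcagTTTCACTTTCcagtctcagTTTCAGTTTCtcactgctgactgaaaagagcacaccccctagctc
Ifit3, chr19:34583359-34583488, plus strand: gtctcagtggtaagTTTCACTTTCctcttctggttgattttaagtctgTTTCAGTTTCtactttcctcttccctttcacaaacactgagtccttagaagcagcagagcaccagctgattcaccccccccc
Isg15, chr4:156200859-156200988, minus strand: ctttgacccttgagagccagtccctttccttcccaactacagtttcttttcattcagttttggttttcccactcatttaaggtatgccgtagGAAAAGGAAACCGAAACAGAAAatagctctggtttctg
Gbp2, chr3:142620493-142620622, plus strand: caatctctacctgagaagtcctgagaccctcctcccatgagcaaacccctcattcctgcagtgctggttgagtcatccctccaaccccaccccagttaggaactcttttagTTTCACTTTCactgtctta
Of the 26 called-higher antiviral effectors with a promoter row, 10 held the core in the 250 bases before the start (38.5%), as did 9 of the 10 called-higher guanylate-binding proteins and immunity-related GTPases (90.0%). Among all 29 tested antiviral effectors with a row, called or not, 12 held it (41.4%), so that the called-higher members held it no more often than the list as a whole. Of the 9329 tested genes with a promoter row, 3.17% held it.

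Genes that load MHC class I molecules with peptide mostly rose. Of 9 loading and trimming genes, 7 were called higher and 1 lower (median 0.53). Tapasin (Tapbp), which holds empty class I molecules at the peptide transporter, read 68.5, 70.4 and 61.9 FPKM in the controls and 159, 154 and 159 FPKM in KO. The transporter subunits Tap1 and Tap2 rose by 0.53 ± 0.06 and 0.60 ± 0.06 on the log2 scale, the peptide-trimming enzyme Erap1 by 1.13 ± 0.06 and Tapbpl, a peptide editor, by 0.93 ± 0.09. Of 9 class I chain genes, 3 were called higher and 0 lower. The invariant chain B2m rose from 1675 ± 139 to 2185 ± 132 FPKM and H2-Q4 from 64.1 ± 3.14 to 99.9 ± 4.01 FPKM, while H2-D1 and H2-K1 were not called (0.09 ± 0.05 and 0.37 ± 0.19), and the call of H2-T23 was lost on leaving out control replicate 1 or 2 or KO replicate 2 or 3. Reads of H2 genes may be shared among them. Without control replicate 1, 2 loading genes were lower, and without control replicate 3, 1 class I chain. Of 6 immunoproteasome genes, 3 were called higher, Psmb8, Psmb9 and Psmb10 (0.48 ± 0.06, 0.61 ± 0.07 and 0.82 ± 0.10), and 1 lower, the activator subunit Psme1 (-0.33 ± 0.06).

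Lipid synthesis genes rose along the sterol path. Cells sense sterol through SCAP and the INSIG proteins, which hold the SREBP transcription factors in the endoplasmic reticulum until sterol falls, and SREBPs then raise the enzymes of cholesterol and fatty acid synthesis. Of 20 cholesterol synthesis enzymes, 19 were called higher and 0 lower (median 1.19), and their summed level was 419 to 521 FPKM in the controls and 1043 to 1057 FPKM in KO. Cyp51, the lanosterol demethylase, read 51.4, 57 and 47.2 FPKM in the controls and 145, 148 and 139.9 FPKM in KO. Lss, which closes the sterol rings, rose from 5.59 ± 0.581 to 14.6 ± 0.275 FPKM, mevalonate kinase (Mvk) from 8.63 ± 0.91 to 22.2 ± 1.29 FPKM and farnesyl diphosphate synthase (Fdps) from 18.9 ± 1.57 to 40.2 ± 1.31 FPKM. Of 7 regulators, 3 were called higher and 2 lower. Insig1, itself an SREBP target, read 21.6, 25.4 and 16.1 FPKM in the controls and 90.6, 90.2 and 89.8 FPKM in KO, and Srebf2 rose from 69.5 ± 4.64 to 87 ± 0.41 FPKM. Srebf1 and Scap were not called (0.09 ± 0.06 and 0.13 ± 0.06), and the calls of Insig2 (0.21 ± 0.06), Mbtps1 (-0.16 ± 0.05) and Mbtps2 (-0.18 ± 0.06) were lost without KO replicate 3. Mbtps1 and Mbtps2 also lost theirs without KO replicate 1, and Mbtps1 without control replicate 2.

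Uptake and efflux genes both changed. Of 11 uptake and transport genes, 8 were called higher and 1 lower (median 0.34). Of 8 efflux genes and LXR targets, 4 were called higher and 1 lower. The exporter Abca1 rose by 2.71 ± 0.31 on the log2 scale from a mean of 0.0533 FPKM, and the oxysterol receptor Nr1h3 fell by 1.05 ± 0.19. The single calls lower changed with the libraries, for uptake to 0 without control replicate 2 or KO replicate 2 and to 2 without control replicate 3, and for efflux to 2 without control replicate 2 or 3 or KO replicate 3. Of 19 fatty acid synthesis genes, 16 were called higher and 1 lower (median 0.47). The desaturase Scd2 rose by 1.02 ± 0.08, acetyl-CoA synthetase Acss2 by 1.12 ± 0.06 and Elovl1, which lengthens fatty acids, by 0.66 ± 0.06, while Acacb, the carboxylase that curbs fatty acid oxidation, fell from 1.61 ± 0.156 to 0.673 ± 0.105 FPKM. One promoter of the path is shown for its sterol response element, searched as CACNCCAC on both strands and printed as above. Hmgcs1, which makes HMG-CoA and was chosen after its values were seen, rose from 31.5 ± 6.51 to 117 ± 3.57 FPKM.
Hmgcs1, chr13:119690181-119690310, plus strand: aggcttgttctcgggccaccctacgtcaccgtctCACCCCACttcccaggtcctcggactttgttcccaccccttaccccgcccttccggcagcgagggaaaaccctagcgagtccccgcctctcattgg
Of the 14 called-higher cholesterol enzymes with a promoter row, 2 held these letters in the 250 bases before the start (14.3%), as did 6.60% of the tested genes with a row.

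Contractile genes rose beside smooth-muscle actin. Of 19 tested smooth-muscle and actin-binding genes, Acta2 included, 12 were called higher and 2 lower (median 0.26). Myosin light chain Myl9 read 0.78, 1.65 and 0.90 FPKM in the controls and 10.4, 9.71 and 12.2 FPKM in KO, with no overlap. Csrp1 and Tagln2, which bundle or bind actin, rose from 53.6 ± 3.24 to 85.2 ± 1.87 FPKM and from 92.6 ± 4.24 to 149 ± 2.69 FPKM, and filamin A (Flna) from 213 ± 11 to 284 ± 9.85 FPKM. Smoothelin (Smtn), a contractile protein, fell from 39.6 ± 0.89 to 29.1 ± 1.36 FPKM, and the count lower was 1 without control replicate 1 or any KO library. Markers of mature smooth muscle had few counts, with Myh11 at 0, 0 and 0 counts in the controls and 0, 4 and 1 in KO, and Cnn1 at 1, 0 and 0 and 5, 10 and 5. The transcription factors of this program were 1 higher and 3 lower of 9, and the 1 call higher, of Srf (0.56 ± 0.17), was lost without control replicate 1 or any KO library, while without control replicate 2 the count was 2. Tead1, Tead4 and Wwtr1 (TAZ) fell, with log2 changes of -0.38 ± 0.07, -0.25 ± 0.07 and -0.21 ± 0.06. Of 16 YAP/TEAD targets, 4 were called higher and 7 lower, among them Ccn2 and Ccn1 higher, from 34.7 ± 4.79 to 67.9 ± 1.03 FPKM and from 305 ± 36.9 to 405 ± 8.43 FPKM, and Amotl2 lower, from 56.1 ± 1.78 to 44.5 ± 1.48 FPKM.

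Collagen chains mostly rose, and other matrix glycoproteins changed in both directions. Of 16 tested collagen chains, 13 were called higher and 2 lower (median 0.54), with type I chains Col1a1 and Col1a2 up from 165 ± 11.5 to 202 ± 16.7 FPKM and from 199 ± 4.24 to 323 ± 21.3 FPKM and Col5a1 up from 23.5 ± 1.19 to 37.9 ± 0.92 FPKM. Col8a1 and the basement membrane chain Col18a1 fell (log2 changes -0.77 ± 0.05 and -0.58 ± 0.08). Of 17 processing genes, 10 were called higher and 2 lower, and P4ha3, a proline hydroxylase of collagen, rose from 1.47 ± 0.186 to 8.55 ± 0.529 FPKM while the crosslinker Loxl2 and the protease Adamts14 fell (log2 changes -1.03 ± 0.08 and -1.06 ± 0.08). Of 20 glycoproteins, 8 were called higher and 9 lower. Laminin chains of epithelial basement membranes fell, Lamb3 being at 2.61, 2.68 and 3.33 FPKM in the controls and 0.030, 0.030 and 0.11 FPKM in KO, and Lama5 at 44.3, 38.4 and 42 FPKM and 12.6, 12.4 and 13.4 FPKM. Neither overlapped between groups. Fibulin 1 (Fbln1) fell from 11.6 ± 0.583 to 1.9 ± 0.208 FPKM, while fibulin 2 (Fbln2) rose from 21.6 ± 0.741 to 36.9 ± 1.07 FPKM and thrombospondin 2 (Thbs2) from 4.29 ± 0.335 to 19.9 ± 1.26 FPKM.

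Integrin subunits changed in both directions. Of 16 tested integrin subunits, 6 were called higher and 7 lower (median -0.27). Itgb4 and Itga6, the pair that anchors epithelial cells to laminin, fell from 4.11 ± 0.222 to 0.907 ± 0.0493 FPKM and from 4.51 ± 0.14 to 2.25 ± 0.0907 FPKM. Itgb7, best known in lymphocytes of the gut, read 99.2, 99.6 and 123 FPKM in the controls and 20.6, 19.2 and 21.6 FPKM in KO. Itgb8, which activates latent TGF-beta, rose from 0.503 ± 0.11 to 3.0 ± 0.104 FPKM and Itgb5 from 44.3 ± 2.18 to 58.7 ± 0.748 FPKM. Of 14 tested proteoglycan and hyaluronan genes, 10 were called higher and 3 lower (median 0.35), with syndecan 3 (Sdc3) up from 21.5 ± 3.14 to 56.6 ± 3.93 FPKM and glypican 4 (Gpc4) from 14 ± 0.771 to 28.6 ± 0.704 FPKM. Of 12 matrix proteases, 5 were called higher and 3 lower. Adamts1 rose from 16.2 ± 2.48 to 40.3 ± 4.22 FPKM and the membrane collagenase Mmp14 from 33 ± 1.01 to 43.2 ± 0.278 FPKM, while of 4 tested protease inhibitors 3 were called higher and 1 lower. The metalloproteinase inhibitors Timp1 and Timp2 rose by 1.37 ± 0.07 and 0.56 ± 0.07 on the log2 scale, and the member called lower was Serpinf1 (-2.12 ± 0.33), which encodes the secreted factor PEDF.

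Genes of the TGF-beta pathway changed in both directions. Of 12 ligand and latency genes, 4 were called higher and 4 lower, near the shares over all tested genes (27.9% higher and 28.2% lower). Tgfb3 rose from 14 ± 0.984 to 23.4 ± 1.65 FPKM and the activin chain Inhba from 5.14 ± 0.641 to 10.2 ± 0.12 FPKM, and the latency protein Ltbp2 fell from 6.52 ± 0.617 to 0.887 ± 0.211 FPKM. Of 17 receptors and SMADs, 5 were called higher and 7 lower. The signalling receptor Tgfbr2 and the coreceptor Tgfbr3 fell from 62.2 ± 2.52 to 37.7 ± 0.869 FPKM and from 23.8 ± 1.74 to 11.3 ± 0.24 FPKM. Of 12 target and feedback genes, 7 were called higher and 3 lower (median 0.28). Pmepa1, a feedback inhibitor that itself binds NEDD4-type ligases, read 0.71, 0.90 and 0.54 FPKM in the controls and 7.19, 8.08 and 6.61 FPKM in KO, with no overlap. Id2 rose from 11.3 ± 0.743 to 25.6 ± 2.47 FPKM and Id1 fell from 63.8 ± 7.27 to 38.6 ± 1.15 FPKM, both inhibitors of basic helix-loop-helix factors.

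Epithelial genes mostly fell. The control cells held keratins 8 and 18 but not E-cadherin, with Cdh1 at 0, 0 and 2 counts in the controls and 1, 1 and 0 in KO, and no basal keratin Krt5 or milk protein Csn2, both at 0 counts in all 6 libraries. Of 6 tested keratins, 4 were called lower and 1 higher. Krt18 fell from 76.2 ± 4.31 to 32.5 ± 1.47 FPKM, Krt7 from 2.72 ± 0.348 to 0.687 ± 0.0961 FPKM and Krt14 with a log2 change of -3.15 ± 0.49, while Krt8, the usual partner of Krt18, rose from 293 ± 32.5 to 352 ± 8.59 FPKM. Of 11 desmosome and hemidesmosome genes, 7 were called lower and 2 higher (median -0.86). Desmoplakin (Dsp), which ties desmosomes to keratin, read 21.5, 19.9 and 19.1 FPKM in the controls and 7.2, 6.57 and 6.5 FPKM in KO, with no overlap. Pkp3, a plakophilin, fell from 13 ± 0.0624 to 5.15 ± 0.376 FPKM, and the 2 called higher were Perp and Pkp4 (0.23 ± 0.06). Of 7 tight junction genes, 5 were called lower and 1 higher, with Tjp1 (ZO-1) down from 38.1 ± 3.1 to 28 ± 0.151 FPKM.

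Epithelial transcription factors mostly fell, and several mesenchymal factors rose. Of 10 tested epithelial transcription and splicing factors, 7 were called lower and 2 higher (median -1.07). Elf3 fell from 11.3 ± 0.798 to 1.79 ± 0.145 FPKM, Klf5 from 19.8 ± 1.02 to 8.61 ± 0.999 FPKM, Tfap2a from 15.1 ± 1.75 to 7.88 ± 0.326 FPKM and Trp63, the p63 factor of basal epithelium, from 4.9 ± 0.406 to 2.53 ± 0.0493 FPKM. Sox9 rose from 2.25 ± 0.317 to 4.65 ± 0.408 FPKM, and the count higher was 1 without control replicate 2. Of 11 tested mesenchymal factors and vimentin, 6 were called higher and 0 lower (median 0.38), with 1 lower without control replicate 2. Sox4 rose from 18 ± 1.61 to 35.1 ± 0.701 FPKM, Prrx1 from 8.13 ± 0.254 to 10.6 ± 0.337 FPKM, Zeb2 from 1.84 ± 0.12 to 2.4 ± 0.0473 FPKM and vimentin (Vim) from 610.3 ± 33.1 to 839 ± 42.4 FPKM. Among adhesion genes, Nectin3 rose from 0.113 ± 0.00577 to 1.82 ± 0.0458 FPKM as Nectin2 fell from 15.9 ± 1.25 to 3.96 ± 0.0115 FPKM. The plot of called members by gene list sets these groups side by side.

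**Figure D5:**
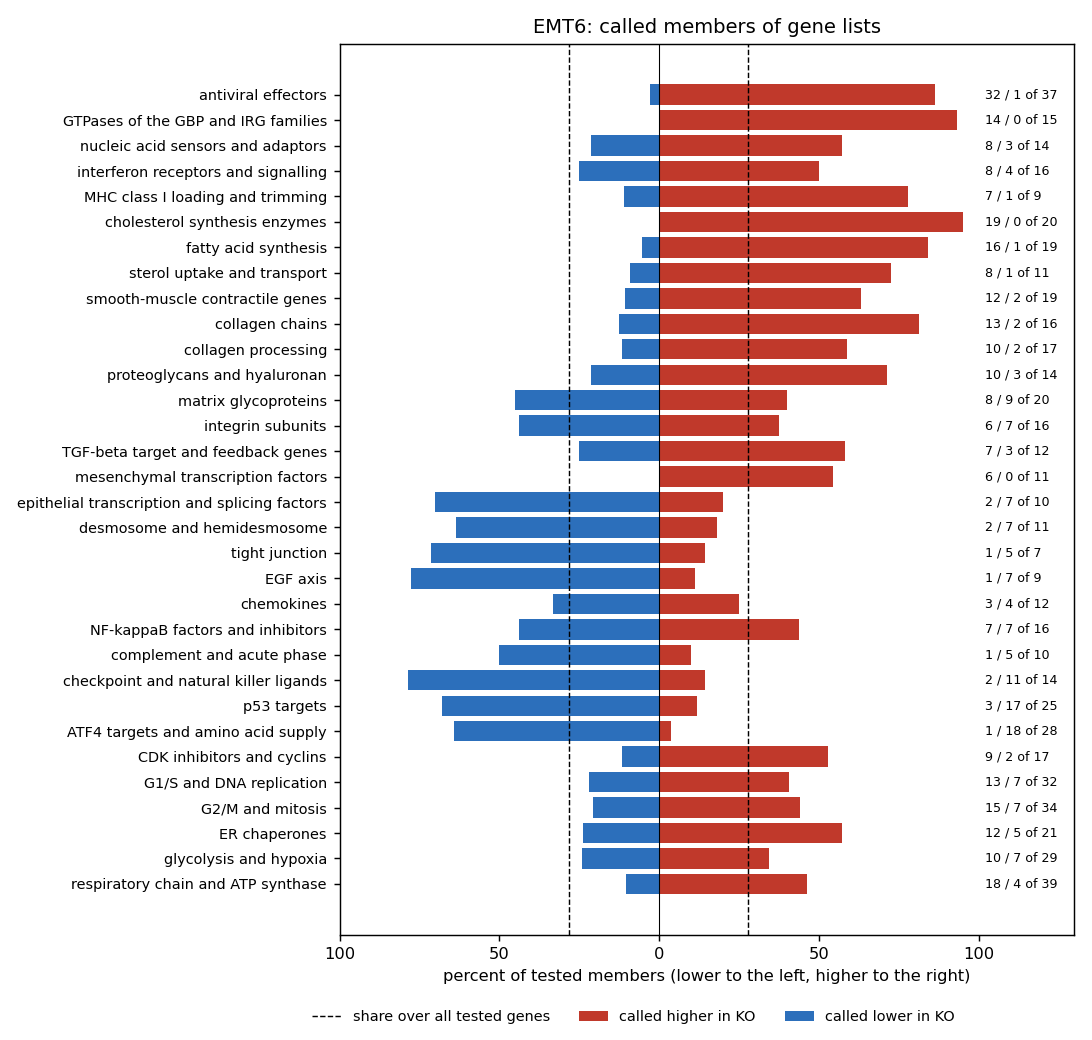
Percent of tested members called higher (red, to the right) and lower (blue, to the left) in KO for 32 of the 69 gene lists. Counts are at the right, and dashed lines mark the shares over all tested genes (27.9% higher and 28.2% lower). The 32 were picked by hand, and those left out include lists that changed in both directions. Cholesterol synthesis (19 of 20 higher) and the GBP and IRG families (14 of 15 higher) extend farthest to the right, and checkpoint and natural killer ligands (11 of 14 lower) farthest to the left.

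Growth factor genes of the EGF axis mostly fell. Of 9 tested ligands, receptors and regulators, 7 were called lower and 1 higher (median -0.67). Amphiregulin (Areg), the most abundant ligand, read 139, 127 and 154 FPKM in the controls and 55.4, 60.6 and 45.4 FPKM in KO, with no overlap. Betacellulin (Btc) fell from 5.33 ± 0.523 to 1.38 ± 0.0874 FPKM and Tgfa from 4.59 ± 0.517 to 1.86 ± 0.0907 FPKM, and of the receptors Egfr fell from 4.13 ± 0.267 to 2.59 ± 0.0551 FPKM and Erbb3 from 1.07 ± 0.185 to 0.423 ± 0.0404 FPKM, while Erbb2 was not called (0.06 ± 0.08). The count higher was 0 without KO replicate 2. Of 10 PDGF and VEGF genes, 3 were called higher and 4 lower, but the lower calls numbered 1 without control replicate 1 or KO replicate 2, 2 without KO replicate 3 and 0 without KO replicate 1. Vegfc, a lymphatic growth factor, had 0, 0 and 0 counts in the controls and 27, 40 and 15 in KO, which is at least 8.24-fold higher when each control is set to 3 counts. Nrp1, a coreceptor, rose from 4.91 ± 0.10 to 8.59 ± 0.464 FPKM. Of 15 FGF, IGF and HGF genes, 5 were called higher and 5 lower, with the IGF binding proteins Igfbp4 and Igfbp6 down from 108 ± 2.78 to 43.1 ± 1.03 FPKM and from 220.1 ± 2.68 to 118 ± 7.23 FPKM. Of 27 ERK feedback and early genes, 7 were called higher and 8 lower, near the shares over all tested genes. Jun rose from 16.5 ± 1.56 to 38.6 ± 5.47 FPKM, and Myc and the ERK phosphatase Dusp4 fell from 65.2 ± 4.83 to 42.3 ± 3.99 FPKM and from 4.83 ± 0.63 to 1.48 ± 0.0764 FPKM.

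Targets of p53 fell more often than they rose. Of 25, 17 were called lower and 3 higher (median -0.58). The cell cycle inhibitor p21 (Cdkn1a) read 23.9, 24.2 and 26.3 FPKM in the controls and 12.8, 13.1 and 12.8 FPKM in KO, and Ccng1, Zmat3 and the stress cytokine Gdf15 fell from 97.9 ± 2.1 to 56.3 ± 1.38 FPKM, from 9.25 ± 0.76 to 4.78 ± 0.439 FPKM and from 39.1 ± 4.3 to 13.3 ± 2.93 FPKM. Perp and Sesn1 rose, the latter from 4.37 ± 0.525 to 8.29 ± 0.326 FPKM. Of 17 CDK inhibitors, cyclins and related genes, 9 were called higher and 2 lower. Cdkn2a, the locus of p16 and p19ARF, read 0.30, 0.28 and 0.44 FPKM in the controls and 3.52, 2.98 and 2.6 FPKM in KO, with no overlap, E2f1 rose from 9.69 ± 1.13 to 18.2 ± 0.422 FPKM and Rb1 fell from 7.89 ± 0.669 to 4.99 ± 0.309 FPKM. The G1/S and replication list held 13 higher and 7 lower of 32, and the G2/M list 15 higher and 7 lower of 34, with medians of 0.03 and 0.13. The G1/S count higher was 8 without KO replicate 1, and the G2/M count lower was 3 without KO replicate 2. Uhrf1 rose from 42.5 ± 4.36 to 66 ± 1.57 FPKM and Cdt1 fell from 41.7 ± 1.06 to 27.6 ± 0.507 FPKM. Of 45 ribosomal proteins, 0 were called higher and 21 lower (median -0.15). Of 28 genes of the MYC network and ribosome biogenesis, 6 were called higher and 8 lower, the lower count near the share over all tested genes.

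Genes of amino acid supply mostly fell. Of 28 tested ATF4 targets and amino acid genes, 18 were called lower and 1 higher (median -0.34). Slc7a11, the cystine importer, read 67.8, 57.4 and 62.5 FPKM in the controls and 18.8, 18.9 and 15.2 FPKM in KO, with no overlap. Its partner chain Slc3a2 fell from 231 ± 26.1 to 136 ± 10.2 FPKM and Atf4 from 483 ± 15.6 to 346 ± 42.4 FPKM, while Atf5 rose from 79.2 ± 9.9 to 111 ± 10.3 FPKM. NRF2 targets were divided, 9 higher and 9 lower of 25, with Srxn1, which repairs oxidized peroxiredoxins, up from 84 ± 0.926 to 131 ± 1.64 FPKM. The NRF2 count lower was 5 without KO replicate 1. Of 21 ER chaperones and related genes, 12 were called higher and 5 lower, among them Creld2 higher, from 44.4 ± 3.78 to 68.2 ± 1.78 FPKM, and the stress sensor Ern1 lower, from 23.8 ± 2.69 to 13.8 ± 1.05 FPKM. In glycolysis and hypoxia, 10 of 29 were called higher and 7 lower (median 0.24), against 27.9% and 28.2% of all tested genes. The summed level of that list was 2570 to 2946 FPKM in the controls and 2949 to 3476 FPKM in KO, though the members named next fell. The glycolysis activator Pfkfb3 fell from 6.74 ± 0.144 to 1.15 ± 0.289 FPKM, hexokinase Hk2 from 21.1 ± 0.78 to 11.5 ± 0.965 FPKM and Hif1a from 104 ± 4.74 to 71 ± 4.88 FPKM. Of 39 nuclear genes of the respiratory chain, 18 were called higher and 4 lower (median 0.10), with 10 higher without KO replicate 2 and 11 without KO replicate 3, and 1 and 2 lower without KO replicates 1 and 2. Of 11 tested mitochondrially encoded mRNAs, 0 were called higher and 1 lower by edgeR, and without control replicate 1 5 were higher. Cystatin C (Cst3), an inhibitor of lysosomal proteases, rose from 122 ± 7.3 to 254 ± 10.3 FPKM.

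Surface ligands read by T cells and natural killer cells mostly fell. Of 14 tested, 11 were called lower and 2 higher (median -0.59). Pvr, a ligand of TIGIT and DNAM-1 as is Nectin2, fell from 9.04 ± 0.144 to 6.47 ± 0.676 FPKM, Vsir (VISTA) fell from 8.57 ± 0.303 to 4.86 ± 0.384 FPKM and galectin-9 (Lgals9), a TIM-3 ligand, from 113 ± 8.78 to 76.2 ± 2.06 FPKM. Cd274 (PD-L1), chosen after its values were seen, was low throughout, at 1.68, 1.43 and 2.29 FPKM in the controls and 0.94, 1.05 and 0.91 FPKM in KO, and fell by 0.90 ± 0.19 on the log2 scale. Ulbp1, a ligand of NKG2D, rose from 23.5 ± 0.205 to 36.3 ± 0.522 FPKM.

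Markers of other cells were checked for the same libraries. Of 21 leukocyte markers, 3 were tested and 12 were at 0 in all 6 libraries, including Ptprc, Cd3e, Itgam and Adgre1, and the summed level was 29.2 to 34.9 FPKM in the controls and 16.5 to 18.3 FPKM in KO. Cd68, a lysosomal protein of macrophages, made up most of it and fell from 19.4 ± 2.07 to 7.39 ± 0.937 FPKM. Of 12 endothelial markers, 2 were tested, Kdr was at 0 and Pecam1 had at most 4 counts, with a sum of 3.45 to 3.86 FPKM in the controls and 2.52 to 2.82 FPKM in KO. Of 18 fibroblast and pericyte markers, 8 were tested, 5 called higher and 3 lower, and the sum was 696 to 872 FPKM in the controls and 1158 to 1234 FPKM in KO. In that list Thy1 was at 0 and Dcn had at most 1 count. S100a4 rose from 424 ± 76.4 to 647 ± 19.3 FPKM, while Notch3, a pericyte marker of the same list, fell, with its values given under other observations. The count lower in that list was 1 without control replicate 2 or KO replicate 1 or 2, and in the leukocyte list 1 without control replicate 3 or KO replicate 2 or 3. Of 16 mammary epithelial markers, 8 were tested, 1 called higher and 6 lower, with a sum of 357 to 423 FPKM in the controls and 384 to 397 FPKM in KO. Of 8 adipocyte markers, 0 passed the count filter for edgeR, and 6 were at 0. The part of other cells in the collagen, Acta2 and Pdgfrb results was not tested beyond these levels.

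Group medians in 4T1 cells lay apart from those in EMT6 for some lists and had the same sign for others. In a fit of all 12 libraries, the KO effect in EMT6 minus that in 4T1 was called for 59.9% of 12006 genes tested in both lines (7197 genes). For the 20 cholesterol synthesis enzymes, the median log2 change was 1.19 in EMT6 and 0.11 in 4T1. For 32 antiviral effectors tested in both lines it was 0.68 and 0.01, and for 7 guanylate-binding proteins and immunity-related GTPases 1.34 and -0.23. For 11 desmosome and hemidesmosome genes it was -0.86 and -0.13, and for 6 complement and acute-phase genes -0.74 and 0.49. Collagen chains had positive medians in both lines, and the higher one in 4T1, 0.30 in EMT6 and 0.77 in 4T1 over the same 11 genes. These differences between list medians were not tested. For single genes, which were named for their change in EMT6, the difference between the lines was 1.44 ± 0.08 (SE) for Cyp51, 3.96 ± 0.17 for Pmepa1 and -2.06 ± 0.11 for Cxcl1, with adjusted p-values by edgeR of 1.45e-12, 1.74e-13 and 8.45e-11. For EGF-axis genes the medians were both negative, -0.86 in EMT6 and -0.63 in 4T1 over 8 genes, and for Areg the difference was -0.14 ± 0.12 (edgeR, adjusted p = 0.359).

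Leaving out control replicate 1 kept most calls. Of the 7224 genes called with all 6 libraries, all were also tested without it, 6572 were called in the same direction (91.0%), and 0 changed sign, with a median shift of 0.03 on the log2 scale. In all, 6954 of 13097 genes were called without it (53.1%), 3441 higher and 3513 lower.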

How the data were processed

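RNA was measured in 6 EMT6 libraries of one deposited table, 3 per genotype, and in 6 4T1 libraries used for the difference between the lines. The authors deposited raw read counts per gene and FPKM values for each library. The submitters' processing notes name cutadapt 1.9.1, HISAT2 2.2.1, HTSeq 0.6.1, DESeq2 and the build GRCm38, without the role of each. The deposited FPKM equalled the count divided by exonic length and library total to within 0.005. Coordinates in the table share start and end with GENCODE M21 for 2.83% of 52073 identifiers, so none is printed from the table; the promoters are those of RefSeq GRCm38.p6, matched by symbol.

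Counts were tested with edgeR 4.0.16 in R 4.3.3: TMM scaling, filterByExpr, robust quasi-likelihood fit of the 6 libraries and Benjamini-Hochberg adjustment over the 12890 genes that passed of 56691. SEs were derived from the log2 change and the F statistic. The difference between the lines came from an interaction term in a fit of 12 libraries. The code was tested on simulated data. Totals of 14307493 to 19761604 counts put the limit that 0 counts allow, 3 counts, at 0.152 to 0.210 CPM. It covers counting error only. No pair of libraries was identical: counts of replicate pairs differed by more than sampling noise (chi-square per degree of freedom 2.38 to 10.9), and all were kept. The value was 10.9 for both pairs with control replicate 3 and 6.34 for control replicates 1 and 2.

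Genes named were Nedd4, the called genes with the 10 largest rises and 10 largest falls in log2 change that had at least 5 FPKM in the higher group and no overlap, the 6 largest rises and falls in FPKM, genes with at most 3 counts in every library of one group and at least 30 in the other, and from each list those with the 4 lowest adjusted p-values, its most abundant member and up to 2 called against the majority; for lists of at most 9 tested genes all could be named. Any other gene is said to be named after its values were seen. A few genes are left out of this text and not reported here. The members and lists were chosen with earlier results of these data known. Alternatives were DESeq2 1.42.0, limma-voom (limma 3.58.1), 2 other scalings, 2 other filters, each library left out and a replicate block.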

Additional observations from a re-analysis of the deposited data

Results flagged for a closer look

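Of Nedd4 and the 20 largest changes in EMT6, 13 could be tested in both lines, and the difference in KO effect between EMT6 and 4T1 was called for each by the interaction test in edgeR, as it was for 59.9% of all genes tested in both lines. Apart from Nedd4 these genes were chosen for a large change in EMT6, which is part of that difference, so the values are a description and their count supports nothing. The differences that follow are EMT6 minus 4T1 on the log2 scale with SE, and each pair of values gives the change in EMT6 and then in 4T1. For Nedd4 itself the difference was -1.35 ± 0.07 (-3.34 and -1.99), so that the targeted transcript fell by less in 4T1.

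Genes that fell in EMT6 are given first. Rises and falls were chosen in equal number, so how many of each appear here reflects only which could be tested in both lines. The difference was -8.71 ± 0.20 for Lcn2 (-8.63 and 0.08), -7.24 ± 0.33 for Nos2 (-6.62 and 0.62) and -5.12 ± 0.24 for Csf3 (-6.59 and -1.46). It was -6.79 ± 0.30 for Cldn9 (-5.70 and 1.08) and -7.36 ± 0.42 for Cdh3 (-5.40 and 1.96). It was -3.74 ± 0.22 for Il24 (-5.05 and -1.31) and -5.51 ± 0.18 for Anxa8 (-4.89 and 0.62). Csf3 and Il24 therefore had negative changes in both lines, while Nos2, Cldn9, Cdh3 and Anxa8 had changes of opposite sign.

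Among genes that rose in EMT6, the difference was 3.84 ± 0.41 for Ifit3 (3.63 and -0.21), 3.29 ± 0.10 for Vcam1 (3.77 and 0.49) and 3.99 ± 0.15 for Pald1 (3.94 and -0.05). It was 4.02 ± 0.25 for Cdhr1 (5.21 and 1.20) and 5.68 ± 0.22 for Perp (5.41 and -0.27). Groups of 3 libraries are too small for a test of single outlying samples.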

How the results depend on the processing

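The count of 7224 called genes stayed within 1.5 times under every alternative run, from 6242 without KO replicate 2 to 7350 with no filter. A minimum mean of 1 FPKM, where fewer genes are tested, gave 6452. DESeq2 called 6770, limma-voom 7233, DESeq2 size factors in edgeR 7221 and scaling by total counts 7219. Leaving out 1 library at a time gave 6242 to 7040 called genes, 3060 to 3516 higher and 3182 to 3540 lower, and a Nedd4 log2 change of -3.36 to -3.32. Of 397 named genes none reversed under the alternatives run, and the most lost their call without KO replicate 2 (20), KO replicate 1 (17) and KO replicate 3 (15). Of 138 counts of list members, 14 moved by over 1.5 times with the minimum of 1 FPKM, 13 with no filter, 2 each with DESeq2, limma-voom and the other scalings, and 8 to 14 on leaving out 1 library. For the difference between the lines, the count of 7197 became 7117 with scaling by total counts and 7064 without EMT6 control replicate 1.

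Replicate numbers did not pair the samples: deviations of same-numbered libraries correlated at -0.14, -0.03 and -0.13. With the replicate number as a block, 6830 genes were called, 3400 higher and 3430 lower, Nedd4 stayed at -3.34, 7 named genes lost their call, and the difference between the lines was called for 6997 genes. Limits remain. At these depths 0 counts allow up to 0.210 CPM, 3 libraries per group limit every test, and none of the alternatives can separate the targeted gene from other differences between the derived cells.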

Other observations

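Wnt, Notch and patterning genes changed in both directions. Of 21 tested Wnt and Notch genes, 5 were called higher and 10 lower, 6 lower without KO replicate 2. The ligand Wnt7b fell from 2.07 ± 0.403 to 0.17 ± 0.0265 FPKM, and the receptors Notch3 and Notch4 from 0.60 ± 0.10 to 0.0367 ± 0.00577 FPKM and from 1.35 ± 0.335 to 0.23 ± 0.030 FPKM. The Wnt receptors Fzd1 and Fzd2 rose from 14.7 ± 1.58 to 26.9 ± 0.606 FPKM and from 5.91 ± 0.554 to 11.5 ± 0.739 FPKM. Of 7 tested Hox genes, 2 were called higher, Hoxa5 (0.60 ± 0.12) and Hoxa7 (0.82 ± 0.19), and 1 lower. The Hox count higher was near the share over all tested genes. Of 7 tested imprinted genes, 2 were called higher and 2 lower, near the shares over all tested genes. Without control replicate 1 the imprinted count lower was 1. Sgce, a sarcoglycan, rose from 0.0533 ± 0.0153 to 1.5 ± 0.163 FPKM, and Phlda2, a growth-restraining gene of the placenta, fell from 5.68 ± 1.47 to 1.07 ± 0.342 FPKM. Among 19 heat shock genes, 5 were called higher and 6 lower, near the shares over all tested genes. The small heat shock protein Hspb1 fell from 29 ± 2.74 to 14.8 ± 1.04 FPKM. Hspa1b, whose reads may be shared with its near-identical copy, rose from 10.8 ± 3.06 to 32.3 ± 2.88 FPKM.

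In the pathway annotation that the authors deposited with the table, looked at after the values were known and given here as description only, detoxification stood at the low end. For metabolism of xenobiotics by cytochrome P450, 23 of 37 tested genes were called lower and 5 higher (median log2 change -0.47). For drug metabolism by cytochrome P450, 20 of 34 tested genes were called lower and 5 higher (median log2 change -0.42). A gene can count in both pathways. At the high end, for steroid biosynthesis, 13 of 18 were called higher and 2 lower (median 0.76). Over all tested genes 27.9% were called higher and 28.2% lower.

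Calls were uneven across chromosomes. On chromosome X, 197 of 379 tested genes were called higher and 45 lower, with a median log2 change of 0.27. On chromosome 14, 43 of 427 were called higher and 230 lower (median -0.27), and on chromosome 11, 130 of 1053 higher and 523 lower (median -0.23). Over all tested genes 27.9% were called higher and 28.2% lower, with a median of 0.00. Medians of the other autosomes lay between -0.18 (chromosomes 8 and 16) and 0.15 (chromosome 19), and chromosome 9, which carries Nedd4, had a median of -0.09. Without control replicate 1 the medians were 0.28 on X, -0.26 on 14 and -0.24 on 11. The cause was not tested.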
